A study of Rattus norvegicus with 8 samples.

Results

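Nuclei of rat nodose ganglia that carried Glp1r, the gene for the receptor of the gut hormone GLP-1, were described against the other neurons of the same ganglia. A nucleus was a member when it held at least 1 raw transcript count (unique molecular identifier, UMI) of Glp1r and at least 2 UMIs summed over Slc17a6, Snap25 and Scn10a. Slc17a6 encodes a vesicular glutamate transporter, Snap25 a synaptic membrane protein and Scn10a a sodium channel of sensory neurons. The neuron condition on these genes was met by 31172 of 36741 nuclei, here called gated neurons, and 2686 of them were Glp1r nuclei. The remaining 28486 gated neurons without Glp1r served as the comparison. A neuron can express Glp1r and hold no UMI of it, so this set can include expressing neurons. Shares with Glp1r are shares of nuclei with a UMI and not of expressing neurons. The members were thus chosen by their Glp1r counts and the condition genes, so the levels of these 4 genes are given as a description, with no test.

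The ganglia came from untreated Long Evans rats, 8 weeks old, 18 male and 18 female. Each pool joined the ganglia of 1 side of 6 rats, so that each combination of labelled sex and side had 3 pools, and the side dissected first was counterbalanced over rats. Nuclei were fixed and barcoded by combinatorial indexing and divided over 8 sublibraries, each of which held nuclei of all 12 pools. Pools are named by their labels: ML1 to ML3 (male, left), MR1 to MR3 (male, right), FL1 to FL3 (female, left) and FR1 to FR3 (female, right). The design compares left with right ganglia and males with females. With 6 rats in each of 3 pools per side, 18 rats of a sex would supply both sides, so the pools of both sides of a sex are not independent animals.

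The nodose ganglion holds the cell bodies of vagal sensory neurons that innervate the gut, heart, lungs and other viscera and project to the brainstem. The GLP-1 receptor is a class B G protein-coupled receptor that couples to Gs and raises cyclic AMP. In vagal afferents it is known for neurons of the stomach and intestine that respond to distension or to hormones released after a meal, and it is studied as a route by which GLP-1 affects food intake.

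The series held 139965360 UMIs, with a median of 2680 UMIs per nucleus and at least 779 in every nucleus. Pools had 93 (ML2) to 426 (FR3) Glp1r nuclei, and these held 521173 to 2604456 UMIs per pool. Y-linked counts went against the label of 2 pools: ML1 had 2.88 counts per 1000000 UMIs (CPM) where the other male-labelled pools had 84.4 to 91.3, and FL1 had 88.6 CPM where the other female-labelled pools had 2.73 to 3.95. Labels were kept and the sexes are called male-labelled and female-labelled. Of all nuclei, 3808 shared a well combination with a nucleus of another sublibrary, among them 286 Glp1r nuclei, and no full barcode occurred in more than 1 row.

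Glp1r was sparse in the nuclei that carried it. Of the 2686 Glp1r nuclei, 1951 (72.6%) held a single Glp1r UMI, 461 held 2 and 274 held 3 or more, with a maximum of 18. The level was 244 ± 35.2 CPM (SD, n = 12 pools), with a lowest pool at 206, a median of 233 and a highest pool at 328 CPM. Over all gated neurons, with or without a Glp1r UMI, it ranged from 17.1 CPM in ML2 to 36.3 CPM in FL3. Just outside the neuron condition, 96 of 3077 nuclei with a condition sum of 1 carried Glp1r (3.12%), and just inside it 146 of 3037 nuclei with a sum of 2 did (4.81%). A further 143 nuclei with Glp1r fell below the condition and are not members.

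Sequencing depth differed between the sets before any gene was compared. Glp1r nuclei had a median of 4491.5 UMIs and gated neurons without Glp1r 2987.5. The median was higher in Glp1r nuclei in 12 of 12 pools, by 1351 ± 359 UMIs (SD over pools). A nucleus with more UMIs has more chances to hold 1 of Glp1r, so the rule favours deep nuclei and this difference is given with no test. The share of gated neurons with Glp1r rose with depth, from 3.06% in the shallowest quintile of nuclei (779 to 1683 UMIs) to 15.3% in the deepest quintile (5874 to 50009 UMIs). Comparisons of genes are therefore also given against depth-matched neurons, 2 gated neurons without Glp1r from the same pool for each member, whose median was 4491 UMIs.

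Free RNA can place a UMI in a nucleus that does not express a gene, so the share with Glp1r was also measured in glia. The reference was 1350 nuclei with no UMI of the condition genes and at least 5 UMIs of glial marker genes. Of these, 1.48% carried Glp1r (exact binomial 95% interval 0.907% to 2.28%, median depth 1335 UMIs), against 8.62% of gated neurons (median depth 3096.5 UMIs). After every nucleus was thinned to 1000 UMIs, leaving out 956 gated neurons and 222 glial nuclei that were shallower, the shares were 2.81% (2.62% to 3.00%) and 1.15% (0.615% to 1.96%). The neuronal share lay above the glial share at equal depth, with intervals that did not overlap. Per pool, Glp1r in these glia ranged from 0 (FL3) to 21.6 CPM (ML2). In ML2 this was above the 17.1 CPM of the gated neurons of the pool, and in the other 11 pools it was below theirs. Intervals cover counting error only. The reference glia held no UMI of the condition genes, which free neuronal RNA would also bring. The reference may thus leave out glia with more free RNA and give a low share. Among all nuclei, Glp1r was found in 1.89% with a condition sum of 0 and in 3.12% with a sum of 1. The size of this effect was not tested.

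Shares with Glp1r differed little between left and right ganglia. Glp1r was carried by 8.55 ± 2.68% of left gated neurons and 8.83 ± 1.56% of right ones (SD over 6 pools a side, exact permutation p = 0.795, two-sided). The left pools spanned 4.74% (ML2) to 11.5% (FL1) and the right pools 6.52% (MR2) to 10.2% (FR1), so the sides overlapped over the whole range of the right pools. The Glp1r level over all gated neurons, which does not depend on the choice of members, was 27.4 ± 7.62 CPM in left and 31.5 ± 3.85 CPM in right ganglia (SD over 6 pools a side). The log2 fold change of right over left was 0.21 ± 0.14 (SE, edgeR adjusted p = 0.796 over all genes).

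By labelled sex, 7.38 ± 1.88% of gated neurons carried Glp1r in male-labelled pools, and 9.999 ± 1.43% did in female-labelled ones (SD over 6 pools), a difference of 2.62 percentage points (exact permutation p = 0.035). The test takes the 6 pools of a sex as independent, though the same 18 rats would supply both sides. The groups overlapped, since MR1 reached 10.2% and FR2 stood at 7.68%. Depth moved with labelled sex: the median of gated neurons without Glp1r was 2369.5 to 3369 UMIs in male-labelled and 2692 to 3985 UMIs in female-labelled pools. At 1500 UMIs per nucleus the shares were 3.90 ± 1.12% and 4.34 ± 0.553% (SD, n = 6 each, exact permutation p = 0.375). The difference at full depth also missed the threshold without ML1 and FL1 (2.15 points, exact permutation p = 0.117). Leaving out a single pool gave 2.09 (without ML2) to 3.18 points (without MR1), and p reached 0.05 to 0.07 without any of ML1, ML2, ML3, MR2, FL1, FL3, FR1 or FR3. The level of Glp1r over all gated neurons was 27.0 ± 7.80 CPM in male-labelled and 31.9 ± 2.71 CPM in female-labelled ones (SD over 6 pools, log2 fold change 0.26 ± 0.14 SE, edgeR adjusted p = 0.448).

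**Figure D1:**
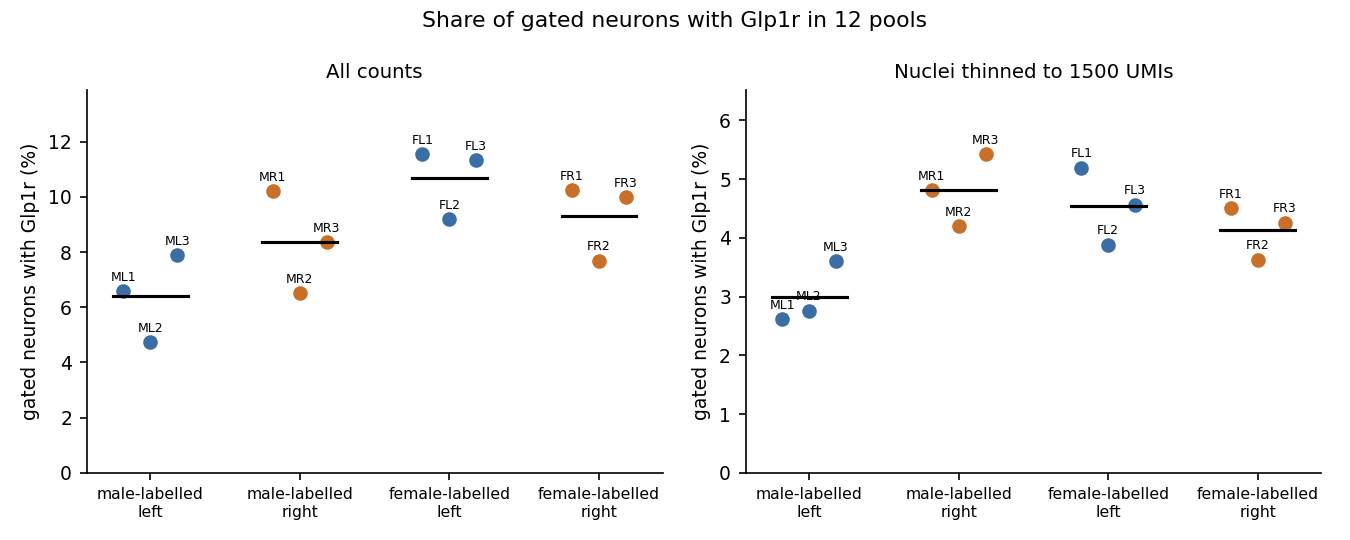
Percent of gated neurons with at least 1 Glp1r UMI in each of the 12 pools, with all counts (left panel) and after thinning every nucleus to 1500 UMIs (right panel). Points are pools, lines are group means and the 2 panels have different scales; with all counts ML2 is lowest at 4.74% and FL1 highest at 11.5%, and after thinning the range is 2.62% to 5.42%.

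Glp1r nuclei were concentrated in a few kinds of vagal neuron. The gated neurons were divided into 28 clusters from their expression without Glp1r and without the condition genes, and 26 of these had enough nuclei per pool for a test. The share with Glp1r was higher than in the remaining gated neurons in 7 clusters (26.9% of those tested) and lower in 15 (57.7%). In 4 of the 7 it was also higher after thinning to 1500 UMIs. These 4 held 6664 nuclei, 21.4% of gated neurons, and 1516 Glp1r nuclei, 56.4% of the members. Among members with 3 or more Glp1r UMIs, 180 of 274 (65.7%) were in these clusters. Since the 4 clusters were picked by their shares in these same nuclei, such an excess of members follows from the choice. The proportions are a description.

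The highest share was in cluster g20, led by Agtr1a (angiotensin receptor type 1a), Ntrk3 (neurotrophin-3 receptor) and Klhl1, with 591 nuclei. Of these, 43.9 ± 8.34% carried Glp1r (SD, n = 12 pools, from 32.1% to 58.8%), higher than the remaining neurons in 12 of 12 pools (adjusted exact sign-flip permutation p = 0.000793, the smallest reached over 26 clusters). After thinning the share was 21.3 ± 9.43%. Over all its nuclei Glp1r stood at 194 ± 54.6 CPM.

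Cluster g8 contributed the most members, 527 of 2686 (19.6%). It was led by genes that include Xylt1, the xylosyltransferase that starts glycosaminoglycan chains, Sctr (secretin receptor), Cckar (cholecystokinin A receptor) and Chrna3 (nicotinic acetylcholine receptor α3). Of its 1499 nuclei, 35.6 ± 8.62% carried Glp1r (SD, n = 12 pools, 19.7% to 49.1%), and 18.6 ± 4.06% after thinning, higher than the remaining neurons in 12 of 12 pools either way. Glp1r stood at 140 ± 30.8 CPM over its nuclei.

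In cluster g11, led by Nxph1, Rnf220 and the potassium channel gene Kcnk2, 26.5 ± 9.83% of 1173 nuclei carried Glp1r (SD, n = 12 pools, 8.33% to 44.8%), and 16.3 ± 6.66% after thinning. Glp1r stood at 127 ± 40.7 CPM there. In cluster g1, the largest, led by Fhip1a, Kirrel3 and Col27a1, the share was 12.7 ± 3.87% of 3401 nuclei (6.30% to 19.7%), higher than in the remaining neurons in 11 of 12 pools, and 6.92 ± 2.37% after thinning. For 2 or more Glp1r UMIs, g1 did not exceed the remaining neurons (difference -0.45 percentage points, adjusted exact permutation p = 0.280). Neighbours in this order overlapped in their ranges over pools, and the pairwise differences between clusters were not tested.

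Clusters g9, g22 and g23 had high shares that did not hold at equal depth. In g9, led by Tyrp1, Th and Pcp4, 18.9 ± 6.11% of 1490 nuclei carried Glp1r at a median of 5947.5 UMIs, and 3.93 ± 1.88% after thinning, against 4.13% in the remaining neurons. In g22 and g23 the thinned shares were 4.28 ± 2.65% and 4.39 ± 3.37% (SD, n = 12 pools). At the low end, 12 of the 26 clusters had thinned shares at or below the 1.49% measured in glia at the same depth, and these held 259 Glp1r nuclei among 13770. They include g2 (Itgae, Gpr65 and Chrm2), g7 (Cysltr2 and Gdpd4) and g12, led by Tac1, Calca and Gfra3. In g2 the share was 1.46 ± 0.991% with all counts and 0.634 ± 0.580% after thinning. A share at that level is not read as expression.

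**Figure D2:**
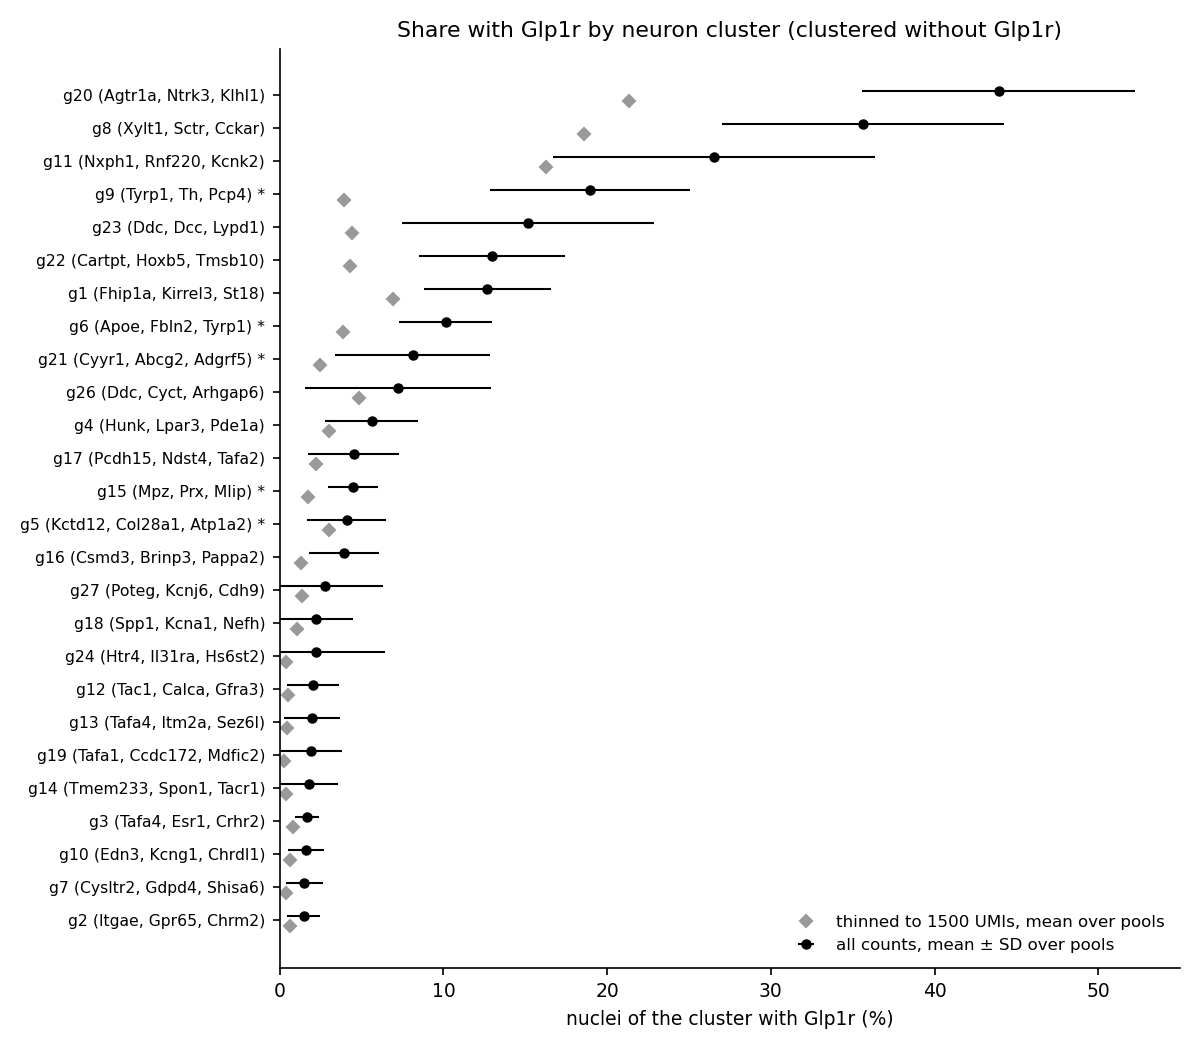
Percent of nuclei with Glp1r in the 26 clusters of gated neurons that could be tested, named by number and leading genes. Black points and bars are the mean and SD over pools with all counts (bars stop at 0), grey diamonds the mean after thinning to 1500 UMIs, and an asterisk marks clusters in which at least 5 markers of 1 non-neuronal cell type are high; g20, g8 and g11 stand apart in both, while g9 does so with all counts only.

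Members of the 4 clusters differed in the other hormone receptors they carried. Since these genes took part in the clustering, the levels are a description, given as CPM over all members of a cluster. In the 527 members of g8, Cckar was at 295 CPM and Sctr at 164 CPM, where gated neurons without Glp1r had 19.4 and 12.97. In the 260 members of g20, Agtr1a was at 109 CPM and Avpr1a (vasopressin receptor 1A) at 76.1, where gated neurons without Glp1r had 4.76 and 2.06 CPM. In the 298 members of g11, Crhr2, a receptor of corticotropin-releasing hormone and urocortins, was at 141 CPM against 72.3 CPM without Glp1r, and Kcnk2 at 318 against 30.1 CPM. In the 431 members of g1, Cckar was at 107 CPM and Sctr at 6.16 CPM. Glp1r itself lay between 303 (g8) and 392 CPM (g11) in these 4 groups of members. Every member holds at least 1 Glp1r UMI, so this level is not comparable between clusters of unlike depth. The median was 3394 UMIs over g8 and 2607 UMIs over g11, and Glp1r over all their nuclei was at 140 and 127 CPM. Npy2r, the receptor of the satiety peptide PYY, was at 29.1 CPM in g8 members and 0.905 CPM in g11 members.

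**Figure D3:**
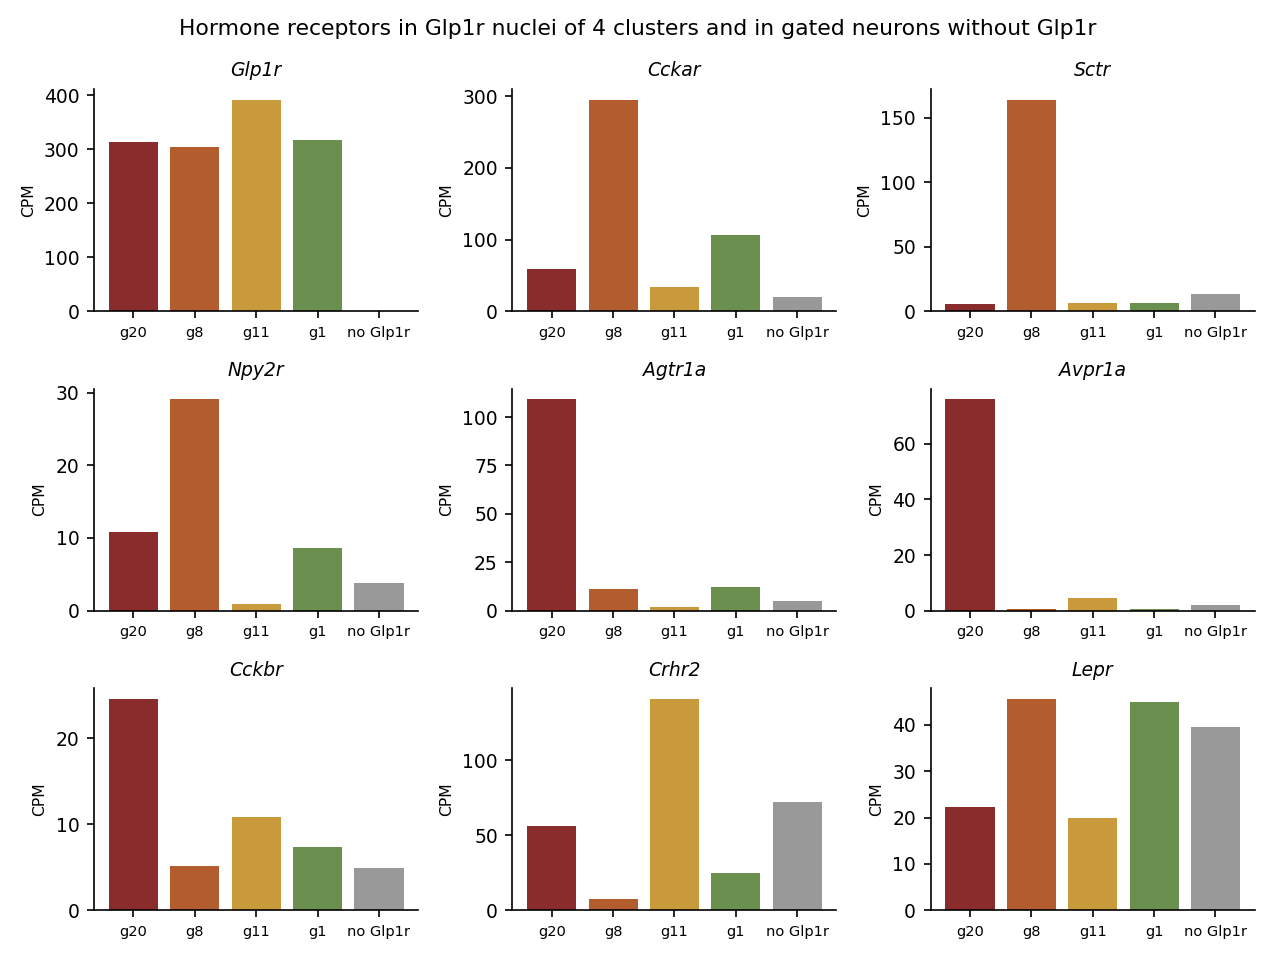
Level of 9 hormone receptor genes in CPM, from UMIs added over all pools, in Glp1r nuclei of clusters g20, g8, g11 and g1 and in gated neurons without Glp1r. Bars start at 0 and each panel has its own scale; Sctr is at 164 CPM in g8 members and at 6.16 CPM in g1 members, and Avpr1a is at 76.1 CPM in g20 members.

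Glp1r nuclei expressed a set of genes apart from that of other gated neurons. UMIs were added per pool for members and for gated neurons without Glp1r, and both sums of a pool were compared in 1 model with the pool as a block (edgeR, adjusted p under 0.05). Of 12569 genes tested, 3641 (29.0%) passed, of which 1874 (14.9%) were higher and 1767 (14.1%) lower in Glp1r nuclei. Against depth-matched neurons 1137 of the higher genes (9.05% of those tested) and 1152 of the lower (9.17%) passed in the same direction. That comparison tested 10445 of the 12569 genes, so a gene without a call there was in some cases not tested. The pools of the sets did not overlap for 330 genes (2.63%). The members lie in certain clusters, so a further comparison was made with the neurons nearest in depth from the same pool and cluster. There 907 of 9815 genes (9.24%) passed, 457 higher (4.66%) and 450 lower (4.58%). Depth was not equal in it, with a median of 4500 UMIs in the 2677 members matched and 3970 UMIs in their comparison neurons. Values given below as within clusters therefore keep a difference in depth. Their comparison neurons can also include neurons of the same cluster that express Glp1r but held no UMI of it. After thinning every nucleus to 1500 UMIs, 1668 genes passed. Values below are in CPM of the normalised library size.

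Among genes with at least 20 CPM in Glp1r nuclei that passed against both all and depth-matched neurons and moved the same way in all 12 pools, the largest rise was that of the cholecystokinin A receptor. Cckar was at 31.6, 89.3 and 141 CPM (lowest, median and highest pool) in Glp1r nuclei and at 10.05, 20.8 and 30.9 CPM in other gated neurons. No pool of members was as low as any pool of other neurons. The log2 fold change was 2.26 ± 0.07 (SE, edgeR adjusted p = 1.62e-22), 2.43 against depth-matched neurons and 0.76 against neurons of the same clusters (adjusted p = 2.34e-12).

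Xylt1 was at 182, 276 and 443 CPM in Glp1r nuclei and at 41.9, 66.7 and 97.0 CPM in the others, again without overlap (log2 fold change 2.05 ± 0.06 SE, edgeR adjusted p = 1.25e-23). Within clusters the difference was 0.47 on the log2 scale. Sctr was at 20.4, 36.6 and 65.8 CPM against 8.49, 12.2 and 20.2 CPM, a log2 fold change of 1.65 ± 0.10 (SE). Its difference within clusters was 0.25 and missed the threshold (edgeR adjusted p = 0.0890). Grin2a, an NMDA receptor subunit gene, rose by a log2 fold change of 1.25 ± 0.07 (SE) and likewise had 0.19 within clusters (edgeR adjusted p = 0.0694).

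Nicotinic receptor subunits went both ways, with Chrna3, Chrna5, Chrnb4 and Chrna7 higher, Chrna6 and Chrnb3 lower, and Chrnb2 not past the threshold (edgeR adjusted p = 0.0938). Chrna3 was at 91.0, 212 and 279 CPM in Glp1r nuclei and at 40.9, 61.0 and 76.2 CPM in other gated neurons (log2 fold change 1.77 ± 0.06 SE), and kept a difference of 0.84 within clusters (edgeR adjusted p = 6.94e-17). Chrna5 was at 27.8, 39.1 and 60.4 CPM against 13.8, 16.1 and 20.9 CPM (log2 fold change 1.26 ± 0.07 SE). Chrnb4, which lies beside these in the genome, was at 43.9, 64.7 and 79.2 CPM against 22.02, 28.3 and 33.4 CPM (1.16 ± 0.07 SE). The pools of the sets did not overlap for any of these 3. Chrna7 had a log2 fold change of 0.60 ± 0.06 (SE) and Chrna6 one of -1.49 ± 0.15 (5.11 against 13.7 CPM on average). Chrnb3 was at 3.90 against 10.4 CPM and was not tested against matched neurons.

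Other named rises were St18 (a zinc finger transcription factor), Nnat (neuronatin), Sema3e (a secreted semaphorin), Rgs9 (a GTPase activator of G proteins) and Syt17 (a synaptotagmin). Rgs9 was at 221, 290 and 426 CPM against 89.5, 119 and 135 CPM, a log2 fold change of 1.41 ± 0.04 (SE). The remaining 4 had log2 fold changes from 1.27 (Syt17) to 1.58 (St18). For Nnat the lowest member pool, 30.6 CPM, was level with the highest of the other neurons. The named rises were higher within clusters too, though Sctr and Grin2a missed the threshold there.

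**Figure D4:**
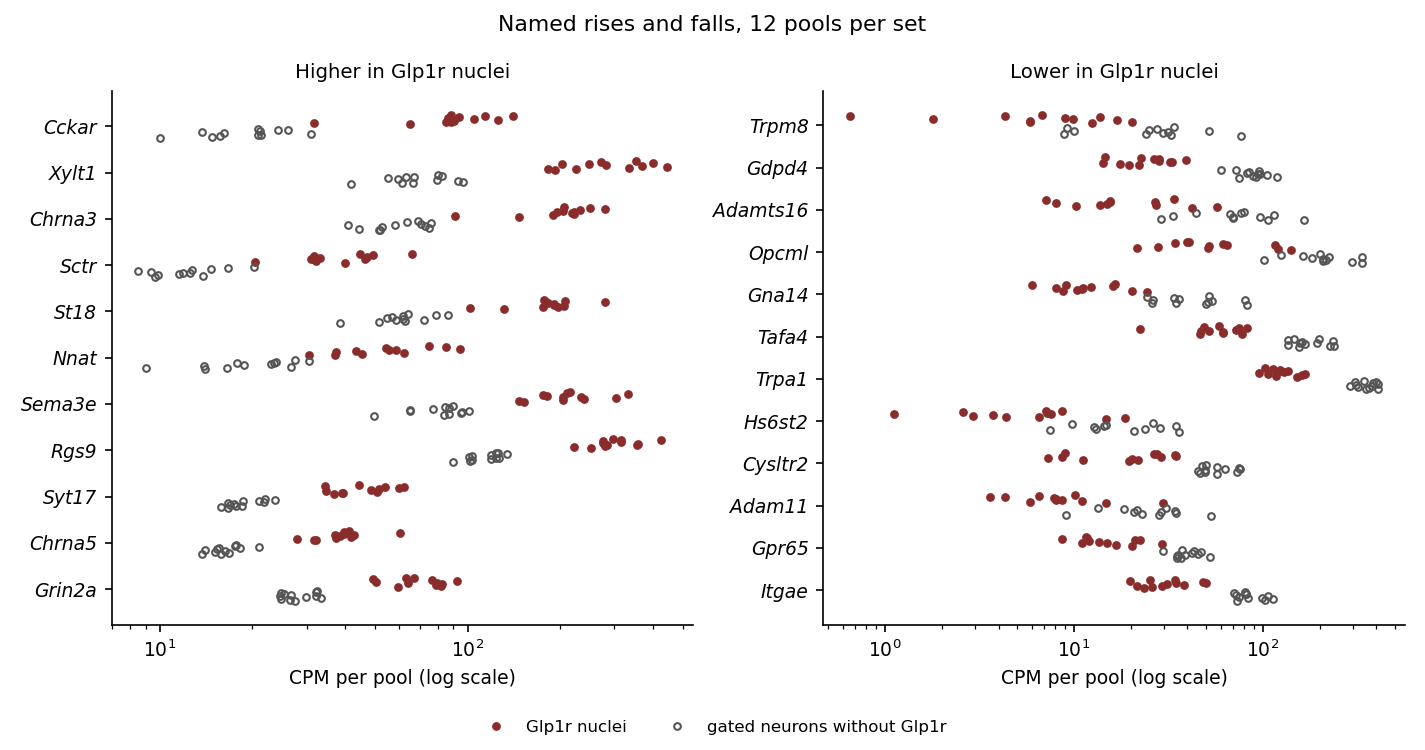
CPM per pool of the named rises (left panel) and named falls (right panel) in Glp1r nuclei, on log axes. Filled points are the 12 pools of Glp1r nuclei and open points the 12 pools of gated neurons without Glp1r; the sets are separate for Xylt1 (lowest member pool 182 CPM, highest other pool 97.0) and for Trpa1 (highest member pool 168 CPM, lowest other pool 291).

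Under the same limits, with 20 CPM in the other neurons, the named falls had log2 fold changes from -1.84 (Trpm8) to -1.39 (Itgae), and they include several sensory channels and receptors. Trpa1, the irritant-gated channel, was at 95.7, 125 and 168 CPM (lowest, median and highest pool) in Glp1r nuclei and at 291, 358 and 410 CPM in other gated neurons. The pools did not overlap and the log2 fold change was -1.47 ± 0.06 (SE, edgeR adjusted p = 3.28e-20), -0.75 within clusters. Trpm8, the cold and menthol channel, was at 0.652, 7.89 and 20.4 CPM against 8.91, 28.7 and 76.5 CPM (log2 fold change -1.84 ± 0.15 SE). Cysltr2, a leukotriene receptor, was at 7.35, 21.1 and 34.9 CPM against 45.2, 53.8 and 76.3 CPM (-1.47 ± 0.10 SE). Gpr65, an acid-sensing receptor, was at 8.63, 14.3 and 29.3 CPM against 29.7, 38.1 and 52.6 CPM (-1.40 ± 0.10 SE).

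The other named falls were Gdpd4, Adamts16 (a secreted metalloprotease), Opcml (a cell adhesion molecule), Gna14 (a G protein of the Gq family), Tafa4 (a secreted chemokine-like peptide), Hs6st2 (a heparan sulfate sulfotransferase), Adam11 and Itgae (integrin αE). Tafa4 was at 22.5, 60.1 and 82.8 CPM against 135, 164 and 238 CPM (log2 fold change -1.54 ± 0.08 SE). Opcml was at 21.6, 51.7 and 142 CPM against 102, 209 and 336 CPM, so that its pools overlapped while it was lower in each pool (-1.82 ± 0.08 SE). Within clusters Gpr65 and Itgae missed the threshold (log2 fold changes -0.32 and -0.21, edgeR adjusted p = 0.152 and 0.305) and Hs6st2 was not tested.

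The genes of the rule itself are described only. Scn10a was at 592 ± 57.5 CPM in Glp1r nuclei and 1181 ± 101 CPM in other gated neurons (SD, n = 12 pools), lower in 12 of 12 pools, whereas Slc17a6 was at 250 ± 32.9 and 253 ± 22.7 CPM and Snap25 at 1585 ± 120 and 1687 ± 130 CPM.

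Among the receptors of GLP-1's own family, class B1 hormone receptors, 13 of 15 listed genes were in the matrix and 5 passed the filter on low counts. Sctr rose, and Crhr2 (52.6 ± 5.64 against 73.1 ± 14.95 CPM, SD, n = 12 pools) and Pth1r fell, 1 of these falls also against depth-matched neurons. Of all genes tested, 14.9% rose and 14.1% fell, and 9.17% fell in both comparisons. A Crhr2 UMI was found in 19.0% of Glp1r nuclei and 19.2% of depth-matched neurons, means over pools. For Pth1r these shares were 1.54% and 2.60%, and neither pair was tested. The glucagon receptor Gcgr was at 0.0719 CPM in Glp1r nuclei, the GIP receptor Gipr at 1.37 CPM and the GLP-2 receptor Glp2r at 0.390 CPM, all below the filter and not tested. Calcrl, which forms the CGRP and adrenomedullin receptors, was at 9.05 CPM in Glp1r nuclei and 11.4 CPM in the others and did not pass.

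Of 17 other gut and metabolic hormone receptors tested, 7 rose and 5 fell, beside 14.9% and 14.1% of all genes tested. Against depth-matched neurons 5 and 3 of these also passed, beside 9.05% and 9.17% of all genes. The median log2 fold change was 0.08 beside 0.01 over all genes tested. Agtr1a was at 13.8, 18.6 and 28.2 CPM (lowest, median and highest pool) in Glp1r nuclei and at 3.74, 4.55 and 6.53 CPM in the others (log2 fold change 2.02 ± 0.13 SE). Npy2r was at 4.50, 9.80 and 17.3 CPM against 1.89, 3.82 and 5.83 CPM (1.45 ± 0.14 SE). Avpr1a was at 5.57, 10.7 and 15.8 CPM against 0.972, 2.35 and 3.50 CPM (2.28 ± 0.19 SE) and was not tested against matched neurons. Agtr1a, Cckar and Npy2r were also higher within clusters, with log2 fold changes of 0.53 for Agtr1a and 0.86 for Npy2r.

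Cckbr, the gastrin and cholecystokinin B receptor, Ednrb (endothelin receptor B) and Galr2 (galanin receptor 2) also rose. Ednra (endothelin receptor A), Ntsr1 (neurotensin receptor 1), Npy1r, Ramp3 and Igf1r fell. Ntsr1 was at 3.27 ± 1.45 CPM against 9.56 ± 1.74 CPM (SD, n = 12 pools) without overlap. The leptin receptor Lepr, at 36.3 ± 6.52 and 40.2 ± 3.10 CPM, and the insulin receptor Insr, at 70.5 ± 6.64 and 71.5 ± 4.26 CPM (SD, n = 12 pools), did not pass the test. Gfral, the receptor of GDF15, was at 0.468 CPM, and no Ghsr (ghrelin receptor) UMI was found in Glp1r nuclei; neither was tested.

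Receptors for nutrients and inflammatory lipids were not higher. Of 19 listed genes in the matrix, 6 passed the filter, 3 fell (Cysltr2, Gpr65 and the lysophosphatidic acid receptor Lpar3) and none rose (edgeR and DESeq2 both 0 rises, 1 at an unadjusted p under 0.05, median log2 fold change -0.66). Of all genes tested, 14.1% fell and 14.9% rose. The lysophosphatidic acid receptor Lpar1 was at 153 ± 38.3 CPM against 135 ± 20.3 CPM (SD, n = 12 pools, adjusted p = 0.0929). The free fatty acid receptors Ffar1 to Ffar4, the bile acid receptor Gpbar1 and the calcium-sensing receptor Casr were at or below 1.34 CPM in Glp1r nuclei and were not tested.

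The signalling genes downstream of Gs-coupled receptors moved in either direction. Of 45 genes tested, 12 rose and 11 fell, beside 14.9% and 14.1% of all genes tested, with a median log2 fold change of -0.01. Pde10a, a phosphodiesterase that degrades cyclic nucleotides, was at 461 ± 53.7 CPM against 283 ± 19.2 CPM (SD, n = 12 pools), and the sets did not overlap. Its log2 fold change was 0.70 ± 0.04 (SE), and 0.29 within clusters. The catalytic protein kinase A gene Prkacb and the arrestin gene Arrb1 rose by smaller amounts (log2 fold changes 0.30 and 0.14). The adenylyl cyclases split, with Adcy8 and Adcy1 higher (0.84 and 0.26) and Adcy5 and Adcy2 lower (-0.53 and -0.17). Gnaq, the α subunit of Gq, was at 475 ± 26.6 CPM against 684 ± 42.4 CPM (SD, n = 12 pools), without overlap. Rapgef4, a cyclic AMP-activated exchange factor, was lower (log2 fold change -0.45 ± 0.03 SE). The Gs gene symbol Gnas is carried by 2 gene entries, of which one rose by 0.27 and the other stood at 0.01 on the log2 scale; how reads were split between them is not known.

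Receptors for transmitters also divided. Of 37 tested, 9 rose and 15 fell (median log2 fold change -0.22), beside 14.9% and 14.1% of all genes tested. The ATP-gated channels P2rx2 (140 ± 27.4 against 89.9 ± 14.9 CPM, SD, n = 12 pools) and P2rx3 (335 ± 35.3 against 273 ± 23.3 CPM) rose, in 12 of 12 pools each. The κ opioid receptor Oprk1 rose by 0.95 ± 0.13 on the log2 scale (SE), and by as much within clusters (0.95, edgeR adjusted p = 2.51e-06), while the μ opioid receptor Oprm1 fell (520 ± 55.8 against 664 ± 85.5 CPM). The serotonin-gated channel genes Htr3b (115 ± 24.1 against 225 ± 20.3 CPM) and Htr3a (88.0 ± 14.2 against 119 ± 20.9 CPM) fell, as did the muscarinic receptors Chrm2 and Chrm3. Htr3b was separate between the sets and Htr3a was not.

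Among 16 mechanosensitive and acid-sensing channel genes tested, 4 rose and 8 fell (median log2 fold change -0.11), beside 14.9% and 14.1% of all genes. Asic2 was at 3474, 4199 and 5087 CPM (lowest, median and highest pool) in Glp1r nuclei and at 1633, 2148 and 2507 CPM in the others. Tmc3 was at 396, 550 and 614 CPM against 221, 290 and 338 CPM, and Kcnk2, the mechanically gated potassium channel TREK-1, at 50.2, 59.5 and 87.8 CPM against 23.2, 31.3 and 34.8 CPM. None of these 3 overlapped, and their log2 fold changes were 0.97, 0.91 and 0.99. Piezo2, the main touch and stretch channel of sensory neurons, was at 268 ± 58.4 and 278 ± 73.2 CPM (SD, n = 12 pools) and did not pass (log2 fold change -0.04 ± 0.05 SE, edgeR adjusted p = 0.622). A Piezo2 UMI was nevertheless found in 41.6 ± 3.41% of Glp1r nuclei and 31.2 ± 4.46% of depth-matched neurons (SD, n = 12 pools), a higher share in 12 of 12 pools that was not tested. Piezo1 fell (9.40 ± 3.84 against 20.8 ± 3.45 CPM).

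TRP channels were lower or not different. Of 13 tested, 9 fell and none rose (edgeR and DESeq2, and 0 rises at an unadjusted p under 0.05, median log2 fold change -0.63). Of all genes tested, 14.1% fell and 14.9% rose. Against depth-matched neurons 8 of the 9 TRP channels also fell, beside 9.17% of all genes that fell in both comparisons. Besides Trpa1 and Trpm8 the 9 falls included Trpm3, a heat and steroid-sensitive channel (1520 ± 150 against 2552 ± 200 CPM, SD, n = 12 pools, no overlap), Trpc1, Trpc4, Trpc7, Trpm4 and Trpv1. The capsaicin receptor Trpv1 differed least but for Trpc1 (71.5 ± 10.9 against 82.1 ± 8.40 CPM, log2 fold change -0.19 ± 0.05 SE). Within clusters 5 of the 13 were lower, beside 4.58% of all genes tested there, and Trpv1 was not (log2 fold change -0.02).

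Excitability channels were split evenly, with 19 higher and 20 lower of 48 (median log2 fold change -0.02), beside 14.9% and 14.1% of all genes. The potassium channel genes Kcnq5 (1130 ± 72.3 against 790 ± 61.2 CPM, SD, n = 12 pools) and Kcnn3 (103 ± 22.6 against 58.1 ± 8.24 CPM) rose without overlap, and Kcnd2 rose by 1.09 ± 0.10 on the log2 scale (SE). Kcna1 fell (58.3 ± 21.6 against 114 ± 20.3 CPM). Sodium channels went both ways: Scn3b and Scn1a were higher (log2 fold changes 0.24 and 0.31), and Scn11a and Scn9a, the channels NaV1.9 and NaV1.7 of nociceptors, were lower (-0.59 and -0.33). Scn11a and Scn9a each separated the sets, and within clusters they were at -0.07 each and did not pass.

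Neuropeptides and secreted proteins gave 7 rises and 7 falls among 16 tested, beside 14.9% and 14.1% of all genes tested. The granins and granin-like Scg2, Chga, Chgb and Vgf all rose, Vgf most (37.7 ± 8.53 against 21.9 ± 3.98 CPM, SD, n = 12 pools), and the satiety peptide gene Cartpt rose from 47.5 ± 13.9 to 65.9 ± 24.6 CPM, in 12 of 12 pools. Tac1 and Calca, which encode substance P and CGRP, fell (Tac1 11.2 ± 5.44 against 28.2 ± 18.9 CPM, SD). Calca was at 2.61, 8.84 and 28.2 CPM (lowest, median and highest pool) against 4.86, 18.1 and 64.4 CPM. Calca and Tac1 levels were spread widely over pools in both sets. Penk, the enkephalin precursor, was at 6.55 CPM in members and 1.14 CPM in the others and did not pass the filter.

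Of 11 trophic factor receptors, 5 rose and 4 fell, beside 14.9% and 14.1% of all genes tested. Ntrk3 rose (155 ± 32.0 against 104 ± 11.6 CPM, SD, n = 12 pools, higher in 10 of 12) and Ret, the GDNF family receptor, fell without overlap (206 ± 34.3 against 364 ± 52.9 CPM). Within clusters neither passed (log2 fold changes -0.09 and -0.07).

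Transcription factors and nuclear receptors gave 10 rises and 9 falls among 32 tested (median log2 fold change 0.00), beside 14.9% and 14.1% of all genes. Of these, 4 rises and 7 falls of the list also passed against depth-matched neurons, beside 9.05% and 9.17% of all genes. The placode and visceral neuron factor Phox2a rose from 1.22 ± 0.528 to 3.68 ± 1.63 CPM (SD, n = 12 pools), Runx3 rose (log2 fold change 1.33 ± 0.21 SE) and Runx1 fell without overlap (71.1 ± 9.91 against 111 ± 12.8 CPM). The estrogen receptors went opposite ways, Esr2 up from 5.34 ± 1.02 to 11.3 ± 3.30 CPM and Esr1 down from 44.7 ± 7.00 to 29.4 ± 4.43 CPM. Esr2 was higher within clusters as well (0.65), Esr1 was not lower there (-0.03).

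Of 47 genes that mark vagal neuron subtypes, 16 rose and 29 fell (median log2 fold change -0.55), beside 14.9% and 14.1% of all genes. The rises included leading genes of the 4 clusters named above, among them Nxph1, Kirrel3, Col27a1 and Klhl1, together with Slit2, Npy2r and Cartpt. Against neurons of the same cluster, Slit2, Nxph1, Kirrel3 and Col27a1 had log2 fold changes between -0.11 and 0.08 and did not pass.

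The label was checked against markers of the cell types the nuclei could hold. For reference, 14.9% of all genes tested rose and 14.1% fell, and 9.05% and 9.17% also did so against depth-matched neurons. Markers with few counts may not have been tested against depth-matched neurons. Of 9 general neuron markers tested 3 rose and 2 fell, with 0 of these rises and 1 of the falls past the threshold against depth-matched neurons. Their summed level was 6370 to 8049 CPM per pool in Glp1r nuclei and 6487 to 8120 CPM in the others. Of 6 nodose markers 4 rose, 2 of them also against depth-matched neurons, and 1 fell. Their sum was higher in members in 12 of 12 pools (624 to 968 against 445 to 640 CPM). All 4 jugular markers tested fell, 2 of them also against depth-matched neurons, with a sum of 8.78 to 63.5 CPM in members and 17.8 to 193 CPM in the others, and Mrgprd was at 0 in members. Within clusters Calca and Tac1 did not pass, and Prdm12 and Gfra3 were not tested. Of 5 sympathetic and chromaffin markers tested 3 rose, all 3 also against depth-matched neurons, Th among them (21.1 ± 11.4 against 8.13 ± 1.19 CPM). The sum of this list was higher in members in 12 of 12 pools (152 to 223 against 117 to 139 CPM). Dbh was at 0.576 against 0.647 CPM and Pnmt at 0 in both sets, and neither was tested.

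Satellite glia markers moved with membership. All 7 tested were higher in Glp1r nuclei, beside 14.9% of all genes tested, Apoe most (436 ± 110 against 288 ± 81.5 CPM, SD, n = 12 pools). The sum of 8 markers was 384 to 1131 CPM in members and 324 to 899 CPM in the others, higher in 11 of 12 pools. Against depth-matched neurons 5 of the 7 were higher and against neurons of the same clusters none was (edgeR, 0 of 7, log2 fold changes -0.06 to 0.19). Over all genes, 9.05% were higher against both all and depth-matched neurons, and 4.66% within clusters. In 6 clusters at least 5 markers of a non-neuronal type were high. These held 607 members (22.6%) and 21.3% of gated neurons. Without them 6 of the 7 glial markers were still higher, 9 of 13 TRP channels still fell, and the named rises and falls above all passed. Of all 11898 genes tested without these clusters, 1753 were higher and 1571 lower. The part of glial RNA in these results was not tested.

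Markers of the other cell types were lower, mixed or not past the threshold in Glp1r nuclei, where 14.9% of all genes tested rose and 14.1% fell. Of 7 myelinating Schwann cell markers 3 fell, of 7 non-myelinating ones 3 rose and 2 fell, of 7 endothelial markers 3 fell and of 7 mural markers 2 fell. Against depth-matched neurons 1 of the 3 endothelial falls passed, beside 9.17% of all genes that fell in both comparisons. Of 6 skeletal muscle markers 5 fell, of which Ttn alone also passed against depth-matched neurons and none within clusters, among them Ttn, at 41.4, 89.8 and 1152 CPM against 61.4, 141 and 1489 CPM (lowest, median and highest pool, FR2 highest in both sets). The sum of the list spanned 110 to 1766 CPM over pools of members and 140 to 2343 CPM over the others. None of 5 fibroblast and 4 macrophage markers passed (edgeR and DESeq2 both 0, with 1 and 2 at an unadjusted p under 0.05).

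Members with more Glp1r UMIs had higher levels of some of these genes. Cckar was at 76.5 CPM over members with 1 Glp1r UMI, 111 CPM with 2 and 153 CPM with 3 or more. Agtr1a was at 16.0, 21.3 and 33.3 CPM in that order, Chrna3 at 171, 237 and 339 CPM and Avpr1a at 6.51, 10.1 and 27.6 CPM. Trpa1 was at 147, 107 and 76.1 CPM. Kcnk2 was at 61.0, 61.5 and 59.0 CPM. These are sums over nuclei of all pools whose median depth rose from 3952 UMIs with 1 Glp1r UMI to 5574 with 2, and they were not tested.

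Left and right Glp1r nuclei differed in which clusters they came from. Cluster g8 held 15.8 ± 1.91% of left members and 22.4 ± 3.72% of right members (SD over 6 pools a side). Left pools ran from 13.04% (ML3) to 18.5% (FL2) and right pools from 19.2% (MR1) to 29.6% (FR1), without overlap. The difference of 6.66 percentage points had an exact permutation p of 0.005, the smallest this design allows, and 0.02 after adjustment over the 4 clusters examined, which were picked after their shares had been seen. Among members with 2 or more Glp1r UMIs it was 8.59 points with an unadjusted exact permutation p of 0.045. Among all gated neurons g8 was likewise larger on the right (5.71 ± 0.655% against 3.71 ± 0.773%, SD, n = 6 each), whereas the share of g8 nuclei with Glp1r was 36.9 ± 11.3% in left and 34.4 ± 5.69% in right ganglia (SD over 6 pools, exact permutation p = 0.6). The shares of members in g20 (10.9 ± 2.62% left, 9.13 ± 2.96% right), g11 (10.8 ± 2.90% and 11.5 ± 3.68%) and g1 (16.8 ± 1.96% and 15.2 ± 3.64%) did not differ beyond their spread (SD, n = 6 each, exact permutation p = 0.29, 0.725 and 0.33).

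Few genes differed between left and right Glp1r nuclei. Of 10614 genes tested, 6 passed (0.0565%), 4 higher (0.0377%) and 2 lower (0.0188%) on the right (edgeR quasi-likelihood test), among 583 with an unadjusted p under 0.05. The count was 24 without FR3 and 10 without ML3 or FL1. Over all gated neurons 14 of 14726 genes passed by side, 4 higher (0.0272%) and 10 lower (0.0679%), but 41 passed with DESeq2, 4 with the replicate number as a block and 1 to 7 without any single pool (1 without ML2, MR2 or MR3). In members with 2 or more Glp1r UMIs none passed (edgeR, 428 of 7481 with an unadjusted p under 0.05). Crtac1, which encodes a secreted cartilage and neural protein, was at 212, 151 and 209 CPM in ML1 to ML3 and 237, 241 and 238 CPM in FL1 to FL3. On the right it was at 255, 348 and 327 CPM in MR1 to MR3 and 381, 322 and 336 CPM in FR1 to FR3. The sides did not overlap (log2 fold change 0.59 ± 0.08 SE, edgeR adjusted p = 0.00278), and Crtac1 also differed by side over all gated neurons (0.39, adjusted p = 0.0115).

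Olfm3, an olfactomedin gene, was narrow on the left at 151, 151, 149, 148, 137 and 149 CPM (ML1 to ML3, FL1 to FL3). On the right it was at 109, 89.3, 122, 97.2, 91.6 and 106 CPM (MR1 to MR3, FR1 to FR3), below every left pool (log2 fold change -0.53 ± 0.08 SE, edgeR adjusted p = 0.00376). Over all gated neurons its log2 fold change was -0.15 (adjusted p = 0.632), and the difference between that in Glp1r nuclei and that in other neurons gave -0.40 (edgeR adjusted p = 0.0546). Without the deepest 5% of neurons Olfm3 missed the threshold (adjusted p = 0.132), and so did Opcml (edgeR adjusted p = 0.214).

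Xylt1, the leading gene of g8, rose on the right with 369 ± 59.5 CPM against 227 ± 38.7 CPM (SD, n = 6 each), and its pools overlapped only through FR2 at 277 and FL1 at 289 CPM. Dpp10, a potassium channel accessory gene, rose (1017 ± 140 against 733 ± 72.0 CPM), but missed the threshold without MR2 or without FL3 (edgeR adjusted p = 0.0548 and 0.0743). Opcml fell (36.9 ± 10.9 against 94.8 ± 38.8 CPM). The entry ENSRNOG00000000940, which has no symbol in the deposited gene list, rose (25.8 ± 6.47 against 12.5 ± 3.88 CPM) but passed in 13 of 19 alternatives only and not without clusters of mixed markers (edgeR adjusted p = 0.951). It is a leading gene of g21, a cluster in which 7 endothelial, 7 mural and 7 satellite glia markers are high. Of 235 listed genes tested by side only Xylt1 passed.

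**Figure D5:**
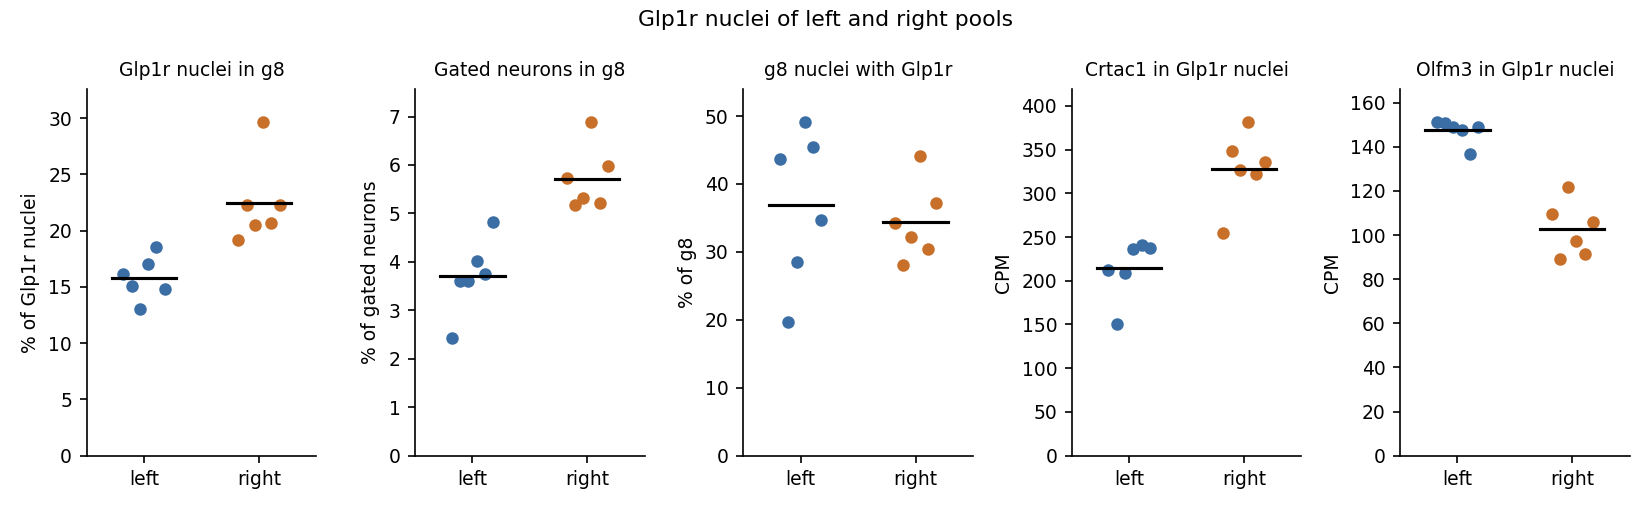
Left and right pools compared for the share of Glp1r nuclei that lie in cluster g8, the share of gated neurons in g8, the share of g8 nuclei with Glp1r, and CPM of Crtac1 and Olfm3 in Glp1r nuclei. Points are pools (n = 6 per side), lines are means and axes start at 0; the first panel separates the sides at 18.5% and 19.2%, and the third does not separate them (36.9% and 34.4% on average).

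By labelled sex no gene passed in Glp1r nuclei (0 of 10614, 0%, edgeR quasi-likelihood test), with 1053 at an unadjusted p under 0.05, while 4 were called with DESeq2. The smallest p belonged to Prkcb, protein kinase C β, at 219 ± 20.9 CPM in male-labelled and 165 ± 18.4 CPM in female-labelled ones (SD over 6 pools). Its lowest male-labelled pool was 196 CPM and its highest female-labelled pool 181 CPM (log2 fold change -0.40 ± 0.07 SE, edgeR adjusted p = 0.0566). Without ML1 and FL1, whose Y-linked counts go against their labels, 30 genes passed, and without FR3 55 did.

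Whether a side difference was particular to Glp1r nuclei was tested as an interaction with the pool as a block. No gene passed (0 of 13140, 0%, edgeR), with 981 at an unadjusted p under 0.05, and none with DESeq2 either (624 unadjusted). The smallest p belonged to Rxrg, the retinoid X receptor γ, at 48.1 ± 7.42 CPM in left and 35.9 ± 6.44 CPM in right Glp1r nuclei, and at 28.5 ± 6.35 and 34.3 ± 5.53 CPM in the other neurons (SD, n = 6 each, edgeR adjusted p = 0.0546). Leaving out 1 pool gave up to 37 genes (without ML3).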

How the data were processed

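The deposited files hold raw transcript counts (UMIs) per nucleus and gene and a table of nuclei with their pool. The submitters' processing notes name mRatBN7.2, R 4.3.2 and Seurat 4.1.3; for the aligner, annotation release and barcode filter, nothing is given in the sources used here. Members and gene lists were chosen with earlier results of these data known.

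Counts were added per pool and set, and tested with edgeR 4.0.16 (quasi-likelihood, filterByExpr, TMM, Benjamini-Hochberg, adjusted p under 0.05), with the pool as a block where both sets of a pool were compared. DESeq2 1.42.0 was an alternative. Shares were tested by exact permutation over pools, by side within sex and by sex within side (smallest p 0.005), or by sign flips (smallest p 0.000488). p-values measure the spread between pools of 6 rats. Where no replicate block is named, left and right pools of a sex entered as independent, though the same rats would supply both sides.

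Clusters came from scanpy 1.11.5 (3000 variable genes, 30 components, 20 neighbours, Leiden resolution 1) without Glp1r, the condition genes, mitochondrial and Y-linked genes. No doublet caller was run; neurons above the 95th percentile of UMIs per pool were left out as an alternative. Named genes passed both the main and depth-matched tests, moved the same way in 12 pools and reached 20 CPM; the 12 largest rises and falls were taken, plus list genes by role. Some genes the rule or lists cover are not reported here, though counts over lists and genes hold them. By side, sex and interaction the called genes (at most 6), or the one with the smallest p, were named. Of 458 list genes, 436 were in the matrix.

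In gene levels of Glp1r nuclei, same-numbered left and right pools did not deviate together (correlations -0.155 to 0.0936 over 7916 genes). This check did not cover the share with Glp1r. That share was lowest in number 2 of each combination of labelled sex and side: 4.74% (ML2), 6.52% (MR2), 9.20% (FL2) and 7.68% (FR2). The labels do not say that same-numbered pools share rats, so numbers were not used as pairs in the main tests. The edgeR tests against neurons without Glp1r and by side were also run on simulated counts with planted changes. These were drawn independently with a fixed dispersion. They held no choice of members by depth, no shared rats and no clusters, so they cannot speak to these limits.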

Additional observations from a re-analysis of the deposited data

Results flagged for a closer look

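Among 55 groups of pools examined, 3 had a pool that stood apart from the rest by Dixon's criterion, which chance reaches in about 1 in 20 groups. In FR1, 29.6% of Glp1r nuclei lay in cluster g8, where the other right pools had 19.2% to 22.3%. Without FR1 the right-left difference was 5.22 percentage points (exact permutation p = 0.01). Crtac1 in Glp1r nuclei was at 151 CPM in ML2, where the other left pools had 209 to 241 CPM. Olfm3 in Glp1r nuclei was at 137 CPM in FL2, where the other left pools had 148 to 151 CPM.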

How the results depend on the processing

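Counts of genes moved most. Against neurons without Glp1r, 3641 genes passed, 1668 after thinning to 1500 UMIs and 907 within clusters. By side 6 passed, 13 with DESeq2, 69 without the filter on low counts, 20 without clusters of mixed markers, 0 among members with 2 or more Glp1r UMIs (428 at an unadjusted p under 0.05), 11 with the replicate block, and 4 to 24 without a single pool (24 without FR3, 10 without ML3 or FL1). By labelled sex 0 passed, 4 with DESeq2, 228 without the filter, 4 without the deepest neurons, 30 without ML1 and FL1, and 0 to 55 without a single pool (55 without FR3, 14 without FL1, 7 without MR1 or FR2, 4 without ML1). For the interaction 0 passed, 2 with depth-matched neurons, 4 without ML1 and FL1, and 0 to 37 without a single pool (37 ML3, 28 FR3, 25 FL2, 21 MR3, 12 FL1, 1 FL3 or FR2).

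The share with Glp1r by side changed sign with 2 or more UMIs (-0.143 points) and spanned -0.477 to 0.886 without a single pool (-0.477 without ML2, -0.108 without ML1); the replicate block gave p = 0.781 in an exact permutation test. By labelled sex the 2.62 points became 0.435 at 1500 UMIs, 1.36 at 3000 UMIs, 2.15 without ML1 and FL1, 0.00678 at 1500 UMIs without these, and 2.09 to 3.18 without a single pool. Clusters with a higher share were 4 after thinning, g9 then at -0.203 points, and g1 was at -0.451 with 2 or more UMIs. The replicate block changed the call of none of the 6 named genes by side, and without the pool as a block 2889 genes passed against neurons without Glp1r. The cluster-matched test, the tests without mixed clusters, the combination of thinning without ML1 and FL1, and the checks of the g8 share were chosen after seeing the data. The causes were not tested. A Glp1r UMI was found in 3.06% of the shallowest and 15.3% of the deepest quintile of neurons.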
